A study of Homo sapiens with 16 samples.

Results

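The net change left after editing both MITF and TFE3 was read from the 6 double knockout (DKO) libraries of SKMEL28, an established human melanoma line with a mutant BRAF kinase, set against the wild-type library of the line. They were picked by their labels, as all libraries titled with both edits, 3 from clone 3 and 3 from clone 13, and they are 6 of 16 libraries in the study and 6 of 10 from SKMEL28. The groups used were clone 3 (MITFKO, TFE3KO; 3 libraries), clone 13 (MITFKO, TFE3KO; 3 libraries), MITFKO (3 libraries) and wild type (1 library, numbered replicate 4). The MITFKO line, called D2, was the parent in which CRISPR-Cas9 then targeted TFE3, so both clones carry its MITF edit. Each clone is 1 isolate, and its replicates are separate flasks of it, so a p-value measures the spread between flasks and not between independently edited cells. No treatment is named in the labels; cells grew in RPMI with serum and had fresh medium before harvest. The comparison asks which genes end above, below or at the wild-type level once both factors have been edited.

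MITF, TFE3, TFEB and TFEC form the MiT family of basic helix-loop-helix leucine zipper transcription factors, which pair with each other and bind E-box sequences. In melanocytes MITF drives pigment genes and the survival and division of the lineage, while TFE3 and TFEB are held in the cytoplasm by mTORC1 in fed cells and, once nuclear, drive lysosome and autophagy genes through CLEAR elements. Melanoma cells with little MITF are known for a dedifferentiated state that moves and invades.

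Expression was measured by RNA-seq of total RNA as read counts per gene, given here as counts relative to library size (TMM-scaled CPM), and 14605 genes had enough counts to test. Library totals ran from 17320855 to 23177517 counts, the highest being wild type. The DKO libraries detected 15605 to 16242 genes, the MITFKO libraries 16362 to 16665 and wild type 17360. Replicate 2 stood apart in clone 13 and, far less, in clone 3. In clone 13 its counts differed from replicates 1 and 3 by a chi-square of 23.5 and 24.9 a gene. Those 2 differed from each other by 4.03. In clone 3 the values were 6.74 and 7.51, against 3.46. For comparison, MITFKO replicates 1 and 3 differed by 5.68, and its other pairs by 3.31 and 3.72. Every difference from wild type rests on its 1 library, so a peculiarity of that library and a change in the edited cells cannot be told apart. In the log2 differences below, ± is the standard error of the fit to all 10 libraries. Differences followed the GC content of the genes (Spearman correlation across genes 0.28, with genes not independent of each other).

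Melanocytic markers (MLANA, PMEL, TYR, TYRP1, DCT, SOX10, S100B and MITF) summed to between 6215 and 8468 CPM in DKO libraries and 14043 CPM in wild type, with none at 0 in wild type. Several defining markers of other cell types were at or near 0. The 10 leukocyte markers summed to between 18.4 and 32.0 CPM in DKO and 3.11 CPM in wild type, most of it LAPTM5, a lysosomal membrane protein, at 16.0 to 30.8 CPM in DKO and 1.71 CPM in wild type. PTPRC, the general leukocyte antigen, reached at most 0.222 CPM in DKO and 0.120 CPM in wild type, and CD8A was at 0 in all 10 libraries. The 8 fibroblast markers summed to between 74.5 and 108 CPM in DKO and 44.5 CPM in wild type. Of 9 keratinocyte markers, DSG3 and DSC3 were at 0 in all 10 libraries, and the list summed to between 224.6 and 319 CPM in DKO and 135 CPM in wild type, most of it PERP, a membrane protein linked to desmosomes. The 7 endothelial markers, with EMCN at 0 in all 10 libraries, summed to between 1.68 and 2.66 CPM in DKO and 2.39 CPM in wild type.

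Total MITF and TFE3 messenger RNA did not vanish in the edited clones. MITF had 811, 778 and 753 CPM in clone 3 and 840.0, 944 and 827 CPM in clone 13, against 498 ± 29.7 CPM in MITFKO (SD, n = 3) and 524 CPM in wild type. All 6 DKO libraries lay above wild type, by 1.57-fold (0.65 ± 0.08 on the log2 scale, edgeR adjusted p = 9.25e-07). TFE3 had 42.5, 46.8 and 47.9 CPM in clone 13 and 8.13, 8.54 and 11.4 CPM in clone 3, against 73.4 ± 3.72 CPM in MITFKO and 43.7 CPM in wild type. The clones parted here: TFE3 fell in clone 3 (log2 difference -2.22 from wild type, edgeR adjusted p = 7.76e-12), whereas clone 13 straddled wild type (0.07, adjusted p = 0.706), and the clone 13 to clone 3 difference was 2.29 ± 0.11 (adjusted p = 2.53e-12). Gene-level counts do not show whether an edited transcript makes protein, so neither the MITF level nor the TFE3 level in clone 13 checks the label. TFEB lay between 1.18 and 1.61 CPM in DKO libraries and at 1.56 CPM in wild type, without a call (adjusted p = 0.738). TFEC had 1 count over the 6 DKO libraries and 0 in wild type and was not tested.

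**Figure D1:**
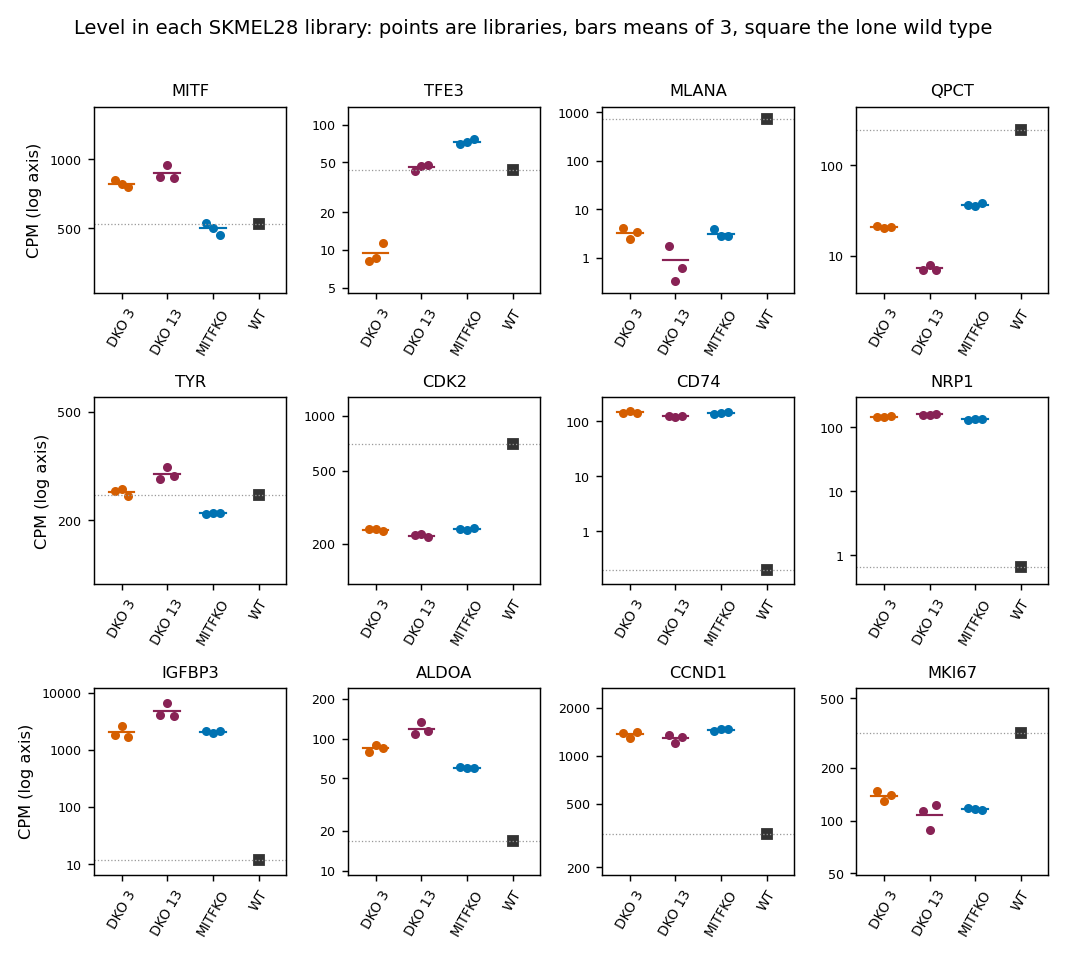
Level of 12 genes in each library (CPM, log axis), with clone 3, clone 13 and MITFKO left of wild type; points are libraries and bars group means. CD74, NRP1 and IGFBP3 sit far above the wild-type point in all 6 double knockout libraries, MLANA and QPCT far below it, TYR beside it, and TFE3 splits clone 3 from clone 13.

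Most tested genes were called, with about as many above wild type as below. TMM scaling itself favours such a balance. It did not hold with the GC trend removed, where 3291 were above and 4281 below. With edgeR's quasi-likelihood test (Benjamini-Hochberg adjusted p under 0.05) 7731 genes (52.9% of those tested) differed in the mean of both clones against wild type: 3870 rose (26.5%) and 3861 fell (26.4%), and the median log2 difference over all genes was -0.01. The typical change was modest: the median absolute log2 difference was 0.51 over all genes and 0.75 over called genes, with a median standard error of 0.15. At least 2-fold changes were called for 2736 genes (18.7%). Changes of at least 4-fold at 5 CPM or more were called for 342 genes above wild type (2.34%) and 202 below (1.38%). On its own, clone 3 differed from wild type in 6826 genes (46.7%), 3545 above (24.3%) and 3281 below (22.5%). Clone 13 differed in 7829 genes (53.6%), 3949 above (27%) and 3880 below (26.6%). The parental line MITFKO differed in 7100 genes (48.6%), 3676 above (25.2%) and 3424 below (23.4%). These comparisons share the wild-type library, so their values are given side by side and not counted as agreement.

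A gene was placed at the wild-type level where the 95% interval of its difference lay inside 1.5-fold either way in clone 3 and in clone 13. This held for 2871 genes (19.7%), of which 563 (3.85% of all genes tested) were also called, with small differences. Another 4566 genes (31.3%) were undecided, neither called nor shown to be at wild type. The share varied with the level: of 4027 genes under 5 CPM none could be placed at wild type and 72.6% were undecided, whereas of 4314 genes from 50 to 500 CPM, 38.6% were at wild type, 37.2% above it, 32.8% below it and 2.55% undecided, where a called gene inside the margin counts as at wild type and as above or below it. Of 243 genes at 500 CPM or more, 54.3% were above and 26.3% below. With replicate 2 of both clones left out, 4178 genes rose and 4221 fell, and 3369 were at the wild-type level.

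**Figure D2:**
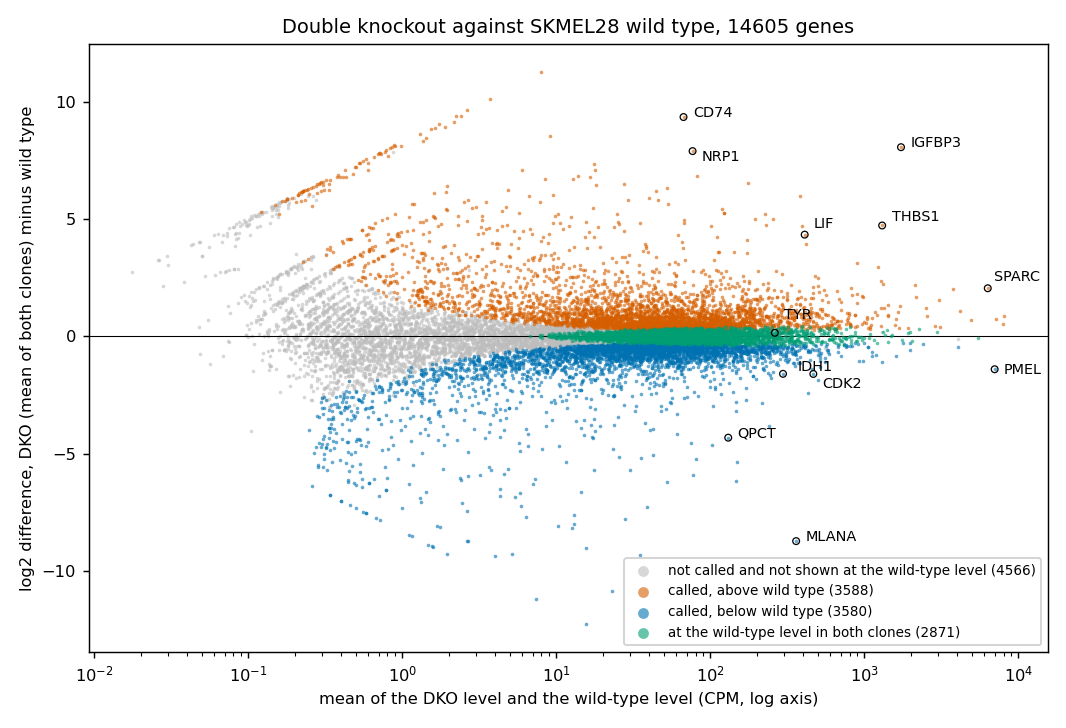
Log2 difference between the double knockout mean and wild type (vertical axis) against the mean level (CPM, log axis) for each of 14605 tested genes, coloured as above wild type (3588), below it (3580), at it (2871) or undecided (4566), where called genes inside the 1.5-fold margin are coloured as at wild type. The genes at wild type form a band round 0 that starts at intermediate levels, and the labelled genes other than TYR lie far outside it.

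Several of the greatest rises were of genes with next to no counts in wild type, while others, such as IGFBP3 with 296, were well measured there. CD74, the invariant chain that guides MHC class II molecules, had 143, 150.4 and 141 CPM in clone 3 and 122, 118 and 127 CPM in clone 13, against 142 ± 6.87 CPM in MITFKO and 0.199 CPM in wild type (log2 difference 9.34 ± 0.50, edgeR adjusted p = 1.1e-19). NRP1, a receptor shared by semaphorin and VEGF signals, had 144, 146 and 149 CPM in clone 3 and 156, 157 and 163 CPM in clone 13, against 0.638 CPM in wild type (7.89 ± 0.27, adjusted p = 3.6e-20). IGFBP3, a secreted binder of insulin-like growth factors, had 1777, 2641 and 1660.3 CPM in clone 3 and 4072, 6662 and 3844 CPM in clone 13, against 11.8 CPM in wild type (8.05 ± 0.46, adjusted p = 4.73e-05). In each of these genes every DKO library was far above wild type, and for IGFBP3 all clone 13 libraries were above all clone 3 libraries. FLT1, a VEGF receptor, and ANGPTL4, a secreted inhibitor of lipoprotein lipase, had no count in wild type and 1829 and 602 counts over the DKO libraries, which makes them at least 136-fold and 44.6-fold higher against a floor of 3 counts in the wild-type library. SH3PXD2A-AS1, an antisense RNA whose reads may belong to its partner gene, was likewise at least 62.4-fold higher. IGFBP5, on 1 wild-type count, stood 466-fold higher (95% counting interval 83.5 to 18410), and MMP10, a stromelysin that cuts matrix proteins, 151-fold higher on 2 wild-type counts (41.7 to 1249). Such floors and intervals cover counting error only. NPTX1, a secreted pentraxin, had 10.7 to 104 CPM in DKO libraries, the highest being replicate 2 of clone 13, against 0.159 CPM in wild type (7.34 ± 3.26, adjusted p = 0.00803). Its wild-type value rests on 4 counts, and the 95% interval of the fit, -0.54 to 15.2, includes 0 although the test called it. OTULINL, a relative of the deubiquitinase OTULIN, had 20.7 to 67.0 CPM in DKO libraries and 0.239 CPM in wild type (7.06 ± 1.11, adjusted p = 2.74e-06).

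The greatest falls were near-complete losses. CDH1, the epithelial cadherin that joins melanocytes to keratinocytes, had no count in any DKO library and 783 counts (31.2 CPM) in wild type, which makes it at least 1173-fold lower against 3 counts over the group. LINC01531, a long non-coding RNA, was also at 0 in all 6 and at least 556-fold lower, a call that DESeq2 did not make (adjusted p = 0.0654). MLANA, the melanosome protein used as a melanoma marker, had 4.04, 2.44 and 3.39 CPM in clone 3 and 1.75, 0.339 and 0.617 CPM in clone 13, against 3.13 ± 0.616 CPM in MITFKO and 718 CPM in wild type (log2 difference -8.73 ± 0.30, edgeR adjusted p = 1.14e-09). RPH3A, a Rab effector in vesicle release, was at most 0.505 CPM in DKO and 69.3 CPM in wild type (-9.30 ± 0.95, adjusted p = 2.49e-08). SULT1C2, a cytosolic sulfotransferase, was at most 0.145 CPM in DKO and 31.3 CPM in wild type (-9.04 ± 0.73, adjusted p = 2.05e-14), and SLCO2B1, an organic anion transporter, at most 0.166 CPM and 46.1 CPM. The remaining losses rest on 1 or 2 DKO counts: ARMCX2 was 894-fold lower (95% counting interval 159 to 35505), LINC00887 598-fold (105 to 23787), ZNF492 589-fold (104 to 23432) and EPHA5, an ephrin receptor, 575-fold (158 to 4776). ZNF492 has close relatives among zinc finger genes, with which its reads may be shared.

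Pigment cell genes ended well below wild type as a group. The list joins pigment genes with genes of other functions, such as QPCT, PPARGC1A and CDK2. CDK2 is also counted among the regulators of G1 below. Of 31 measured, 26 fell, 1 rose and 2 were at the wild-type level, with a median log2 difference of -1.38 in DKO and -1.21 in MITFKO, against -0.01 over all genes in DKO and 0.01 in MITFKO. The counts of this and the following lists stand beside 26.5% of all tested genes that rose and 26.4% that fell. Those shares depend on level. Under 5 CPM 13% rose and 14.4% fell, from 50 to 500 CPM 37.2% and 32.8%, and at 500 CPM or more 54.3% and 26.3%. A list of well-expressed genes with counts near the shares at its own level shows nothing particular to its members. TRPM1, a cation channel of melanocytes that hosts miR-211, had 1.51, 1.497 and 1.32 CPM in clone 3 and 0, 0 and 0.142 CPM in clone 13, against 28.3 CPM in wild type (log2 difference -6.62 ± 0.54, edgeR adjusted p = 1.06e-13). QPCT, a glutaminyl cyclase, had 21.3, 20.3 and 20.9 CPM in clone 3 and 6.93, 7.94 and 6.98 CPM in clone 13, against 36.4 ± 1.81 CPM in MITFKO and 247 CPM in wild type (-4.32 ± 0.10, adjusted p = 1.96e-20). PPARGC1A, a coactivator of mitochondrial genes, was 0.0475 to 0.887 CPM in DKO and 6.82 CPM in wild type (-3.72 ± 0.61, adjusted p = 3.19e-06). All 3 lay below wild type in every DKO library, and for QPCT and TRPM1 clone 13 was lower than clone 3 without overlap. TYR, the rate-limiting enzyme of melanin synthesis, did not follow: it had 257, 262 and 245 CPM in clone 3 and 284, 314 and 291 CPM in clone 13, against 212 ± 1.42 CPM in MITFKO and 248 CPM in wild type (0.14 ± 0.07, adjusted p = 0.104), and was at the wild-type level in both clones. MC1R, the melanocortin receptor, was also at that level, with 126 to 137 CPM in DKO and 160.4 CPM in wild type, although its small fall was called (-0.27 ± 0.07, adjusted p = 0.00386). For TYR a small rise was called in clone 13 on its own (log2 difference 0.25), and in the mean of both clones with the GC trend removed (0.21). In bulk RNA, fewer expressing cells and less RNA per cell cannot be told apart.

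Some promoters of pigment genes hold the sequence that MITF is known to bind. The M-box core TCATGTG was searched on both strands in the 300 bases from 250 before to 50 after each start (RefSeq, GRCh38.p14). It was in 24.0% of 25 promoters of pigment cell genes, 1.75% of the 11414 promoters of tested genes and 2.99% of all 27305. The list holds pigment genes that MITF is known to drive, so its higher share is no separate result. The 6 genes of the list with a match were BCL2A1, GPNMB, GPR143, SLC24A5, TYR and TYRP1, of which 4 fell and 2 were not called. Of the 19 without a match, 17 fell. Among all tested genes, 27% of the 200 with a match rose and 28.5% fell. Shown here are one gene that fell and one that stayed at wild type, with capitals marking the motif, which reads CACATGA where it lies on the opposite strand. GPR143, the ocular albinism receptor of melanosomes, was chosen after its values were seen: it had 6.84, 6.99 and 5.69 CPM in clone 3 and 18.9, 17.9 and 19.5 CPM in clone 13, against 109 CPM in wild type (log2 difference -3.30 ± 0.11, edgeR adjusted p = 1.9e-17), low in every DKO library. Its promoter, chrX:9765798-9766097 on the minus strand, holds matches that begin 61 and 33 bases before the start, and that of TYR, chr11:89177625-89177924 on the plus strand, 1 match that begins 105 bases before it.
GPR143: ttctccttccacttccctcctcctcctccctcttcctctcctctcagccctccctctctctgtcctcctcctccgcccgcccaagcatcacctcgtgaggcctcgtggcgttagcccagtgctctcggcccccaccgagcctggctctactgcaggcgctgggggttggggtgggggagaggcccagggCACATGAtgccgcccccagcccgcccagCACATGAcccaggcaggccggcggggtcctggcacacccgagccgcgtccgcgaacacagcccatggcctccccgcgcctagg
TYR: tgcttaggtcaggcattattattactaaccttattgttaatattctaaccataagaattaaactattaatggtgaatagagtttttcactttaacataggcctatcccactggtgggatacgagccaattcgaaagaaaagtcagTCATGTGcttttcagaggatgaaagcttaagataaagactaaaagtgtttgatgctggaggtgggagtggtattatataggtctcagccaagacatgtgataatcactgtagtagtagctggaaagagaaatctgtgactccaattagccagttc

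Of 23 lineage and neural crest factors, 13 rose, 4 fell and 5 were at the wild-type level (median log2 difference 0.47, or 0.29 with the GC trend removed). NGFR, the nerve growth factor receptor that marks dedifferentiated melanoma cells, had 209, 187 and 239 CPM in clone 3 and 308, 194 and 301 CPM in clone 13, against 6.30 CPM in wild type (log2 difference 5.24 ± 0.37, edgeR adjusted p = 2.3e-05). SOX2, a stem cell transcription factor, had 11.1 to 15.9 CPM in DKO and 0.638 CPM in wild type (4.37 ± 0.43, adjusted p = 1.15e-09). DLX2, a neural crest homeobox factor, had 45.2, 46.9 and 50.5 CPM in clone 3 and 21.4, 16.6 and 25.7 CPM in clone 13, against 6.10 CPM in wild type (2.38 ± 0.19, adjusted p = 1.68e-09). All DKO libraries exceeded wild type for these genes, and for DLX2 clone 3 exceeded clone 13 throughout. IRF4, which cooperates with MITF at the TYR gene, fell to between 20.4 and 32.2 CPM in DKO libraries, against 116 CPM in wild type (-2.17 ± 0.12, adjusted p = 5.52e-14). S100B, a calcium-binding melanoma marker, and ERBB3, a receptor for neuregulin, were at the wild-type level, with 659.9 to 930.3 CPM against 941 CPM and 343 to 395 CPM against 317 CPM. Their small differences were nonetheless called, S100B lower (-0.22 ± 0.07, adjusted p = 0.0152) and ERBB3 higher (0.22 ± 0.07, adjusted p = 0.0121).

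**Figure D3:**
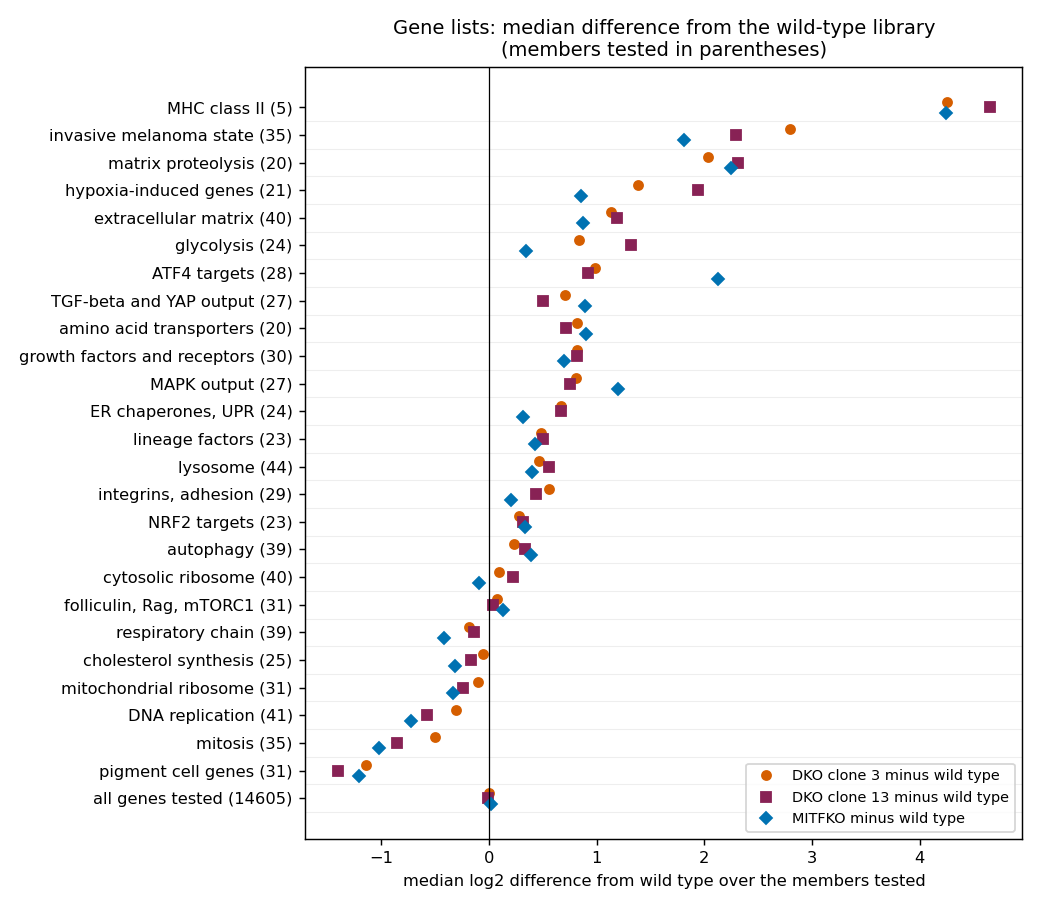
Median log2 difference from wild type of 25 gene lists and of all genes tested, for clone 3, clone 13 and MITFKO. MHC class II (median 4.45 over both clones, with 5 of 12 members tested), the invasive state (2.42) and matrix proteolysis (2.16) lie farthest right. Pigment cell genes (-1.38) lie farthest left, and for glycolysis the clone 13 point (1.32) lies beyond that of clone 3 (0.84) and MITFKO (0.34).

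Lysosome genes ended above wild type with both factors edited. Of 44 genes of the CLEAR network, 30 rose, 4 fell and 9 were at the wild-type level, with a median log2 difference of 0.47 in DKO and 0.40 in MITFKO. MANBA, a mannosidase that trims glycoproteins, had 57.5, 65.8 and 57.4 CPM in clone 3 and 61.6, 76.6 and 59.8 CPM in clone 13, against 63.5 ± 2.36 CPM in MITFKO and 20.3 CPM in wild type (log2 difference 1.63 ± 0.13, edgeR adjusted p = 1.1e-09). CTSB, the protease cathepsin B, had 1536, 1701 and 1497 CPM in clone 3 and 2393, 2853 and 2452 CPM in clone 13, against 792 CPM in wild type (1.35 ± 0.09, adjusted p = 1.7e-10). All DKO libraries were above wild type for both, and clone 13 was above clone 3 for CTSB. The sphingomyelinase SMPD1 rose as well (1.36 ± 0.10, adjusted p = 2.63e-10). CD63, a tetraspanin of late endosomes, and HEXA, a hexosaminidase subunit, were at the wild-type level, at 1154 to 1502 CPM and 289 to 367 CPM in DKO and 1551 CPM and 253 CPM in wild type. Small differences were called for both, CD63 lower (-0.25 ± 0.08, adjusted p = 0.00759) and HEXA higher (0.31 ± 0.11, adjusted p = 0.0222).

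The CLEAR palindrome TCACGTGA was in 20.7% of 29 lysosome promoters, 1.87% of promoters of tested genes and 1.04% of all, again on both strands of the 300-base windows. The shorter E-box CACGTG, which lies inside it, was in 31.0%, 10.1% and 7.43%. The list was drawn as genes of the CLEAR network, which is named for the CLEAR element, so its higher share is no separate result. The 6 genes with the palindrome (CLN3, CTSA, GAA, GALNS, LAMP1 and MCOLN1) all rose, and of the 23 lysosome genes without it 13 rose and 3 fell. Over all 213 tested genes with the palindrome, 24.4% rose and 26.8% fell, close to the share over all genes tested. The promoters of MCOLN1 and LAMP1 are shown because each holds the palindrome 2 times, in capitals, within 50 bases of the start; both genes were chosen after their values were seen. MCOLN1, the calcium channel of the lysosome membrane, had 77.9, 71.5 and 72.5 CPM in clone 3 and 84.9, 91.3 and 80.9 CPM in clone 13, against 36.0 CPM in wild type (log2 difference 1.14 ± 0.09, edgeR adjusted p = 2.45e-09). LAMP1, a main glycoprotein of that membrane, had 512, 524 and 492 CPM in clone 3 and 462, 488 and 467 CPM in clone 13, against 245 CPM in wild type (1.00 ± 0.07, adjusted p = 1.99e-10). In both genes all DKO libraries lay above wild type. The windows are chr19:7522374-7522673 and chr13:113296989-113297288, both on the plus strand of GRCh38.p14.
MCOLN1: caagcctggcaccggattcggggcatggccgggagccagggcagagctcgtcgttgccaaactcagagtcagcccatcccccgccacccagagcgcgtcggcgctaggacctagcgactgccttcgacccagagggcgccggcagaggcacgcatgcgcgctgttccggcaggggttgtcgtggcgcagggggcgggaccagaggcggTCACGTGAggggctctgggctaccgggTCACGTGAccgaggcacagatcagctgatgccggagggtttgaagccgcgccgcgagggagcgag
LAMP1: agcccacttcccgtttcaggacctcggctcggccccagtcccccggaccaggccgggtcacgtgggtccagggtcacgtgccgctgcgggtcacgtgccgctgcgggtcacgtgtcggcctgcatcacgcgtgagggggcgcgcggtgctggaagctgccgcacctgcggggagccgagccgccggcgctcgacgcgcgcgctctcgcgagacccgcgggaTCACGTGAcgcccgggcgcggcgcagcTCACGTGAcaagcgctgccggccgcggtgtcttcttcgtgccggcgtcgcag

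The V-ATPase, the proton pump that acidifies lysosomes, moved in both directions: of 22 subunit genes 9 rose, 4 fell and 8 were at the wild-type level (median log2 difference 0.11, or 0.03 with the GC trend removed). ATP6V0C (0.85 ± 0.07) and ATP6V0E1 (0.83 ± 0.08) of the membrane sector rose, with edgeR adjusted p = 2.04e-09 and 1.53e-08. ATP6V1B2 of the catalytic sector fell (-0.66 ± 0.07, adjusted p = 4.65e-08), as did the tissue-restricted ATP6V0D2, with 3.37 to 6.99 CPM in DKO and 18.5 CPM in wild type (-1.90 ± 0.20, adjusted p = 1.09e-08). ATP6V1E1 and ATP6V1F were at the wild-type level. Of 39 autophagy genes 19 rose, 10 fell and 11 were at that level (median 0.28). NBR1, a cargo receptor, had 211, 202 and 202 CPM in clone 3 and 226, 233 and 227 CPM in clone 13, against 100.2 CPM in wild type (1.11 ± 0.07, adjusted p = 4.96e-11). GABARAPL1, a membrane tag of autophagosomes (1.00 ± 0.09), and ULK2, a starter kinase (0.97 ± 0.16), rose, and EPG5, a tether of autophagosome and lysosome, fell (-1.12 ± 0.10, adjusted p = 5.5e-10). SQSTM1, the cargo receptor p62, was at 1696 to 2088 CPM in DKO and 2157 CPM in wild type, inside the margin.

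Among 31 genes of folliculin, the Rag GTPases and mTORC1, the nutrient switch that controls TFE3, 12 rose, 7 fell and 8 were at the wild-type level (median log2 difference 0.09, turning to -0.07 with the GC trend removed). DDIT4, a stress-induced inhibitor of mTORC1, had 469.6, 539.5 and 445 CPM in clone 3 and 246, 219 and 283 CPM in clone 13, against 111 CPM in wild type (log2 difference 1.65 ± 0.13, edgeR adjusted p = 2.29e-07). CASTOR1, the arginine sensor, had 11.0 to 14.3 CPM in DKO and 3.87 CPM in wild type (1.74 ± 0.20, adjusted p = 1.61e-07), and the mTOR inhibitor DEPTOR rose by 1.33 ± 0.31 (adjusted p = 0.00126). FNIP2, a partner of folliculin, went the other way, with 14.02 to 22.4 CPM in DKO and 54.1 CPM in wild type (-1.62 ± 0.14, adjusted p = 2.91e-10). MTOR itself had 207 to 252 CPM in DKO and 242 CPM in wild type and was at the wild-type level, as was LAMTOR5, a subunit of the Ragulator anchor.

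Targets of ATF4, the factor of the integrated stress response, ended above wild type for the most part. Of 28 measured, 17 rose, 3 fell and 3 were at the wild-type level in DKO (median log2 difference 0.91), beside 27 above and 1 below in MITFKO (median 2.12); DKO was not tested against MITFKO here. ADM2, a peptide hormone, had 13.2, 10.0 and 11.4 CPM in clone 3 and 7.04, 5.76 and 4.75 CPM in clone 13, against 41.5 ± 5.30 CPM in MITFKO and 0.199 CPM in wild type (log2 difference 5.32 ± 0.69, edgeR adjusted p = 3.72e-10). GDF15, a stress-induced cytokine, had 5.97 to 9.15 CPM in DKO, 43.7 ± 1.73 CPM in MITFKO and 0.478 CPM in wild type (3.99 ± 0.42, adjusted p = 4.64e-10). ATF3, a stress-induced factor, had 7.68, 7.87 and 7.19 CPM in clone 3, 3.55, 3.88 and 4.94 CPM in clone 13, 13.7 ± 1.18 CPM in MITFKO and 0.758 CPM in wild type (2.88 ± 0.36, adjusted p = 1.33e-07). For ADM2 and ATF3 all clone 3 libraries were above all clone 13 libraries, which were above wild type. The serine synthesis enzyme PHGDH and the folate enzyme MTHFD2 were at the wild-type level, MTHFD2 with 126 to 222 CPM in DKO, 321 ± 0.998 CPM in MITFKO and 177 CPM in wild type. The small rise of PHGDH was called, but not with the GC trend removed.

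Amino acid transporters rose for 14 of 20 members and fell for 4, with 1 at the wild-type level (median log2 difference 0.82). SLC38A2, a neutral amino acid carrier, had 218, 225 and 211 CPM in clone 3 and 272, 332 and 266 CPM in clone 13, against 66.0 CPM in wild type (log2 difference 1.93 ± 0.10, edgeR adjusted p = 2.06e-12). The glutamate carrier SLC1A1 (1.94 ± 0.21), SLC43A1 for large neutral amino acids (1.52 ± 0.18) and the taurine carrier SLC6A6 (1.21 ± 0.09) also rose, and in SLC6A6 and SLC1A1 clone 13 lay above clone 3. SLC7A1, a carrier of arginine and lysine, was at the wild-type level. Of 19 cytosolic tRNA synthetases, which charge tRNAs, 12 rose, 3 fell and 10 were at that level (median 0.22). GARS1 (1.27 ± 0.07) and WARS1 (1.251 ± 0.08) rose, with 434 to 508 CPM and 524 to 617 CPM in DKO and 195 CPM and 238 CPM in wild type, while FARSB fell (-1.06 ± 0.15, adjusted p = 2.6e-05).

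Genes of protein folding in the endoplasmic reticulum rose in 23 of 24 cases with none falling (median log2 difference 0.66 in DKO and 0.31 in MITFKO), and 3 of the 24 were inside the wild-type margin. P4HB, a protein disulfide isomerase, had 1867, 1992 and 1889 CPM in clone 3 and 2424, 2856 and 2349.5 CPM in clone 13, against 1467 ± 14.9 CPM in MITFKO and 1069 CPM in wild type (log2 difference 1.05 ± 0.08, edgeR adjusted p = 2.22e-09). XBP1, the transcription factor of the unfolded protein response, had 223 to 269 CPM in DKO and 113 CPM in wild type (1.08 ± 0.08, adjusted p = 4.34e-10). EDEM1, which sends misfolded glycoproteins to degradation, rose by 1.254 ± 0.11 and CRELD1, an EGF-domain protein, by 1.89 ± 0.14. All DKO libraries exceeded wild type for the 4 genes. HSP90B1, the chaperone GRP94, was at 1429 to 1614 CPM in DKO and 1464 CPM in wild type.

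Glycolysis genes rose for 20 of 24 members and fell for 1 (median log2 difference 1.03), and clone 13 (median 1.32) stood above clone 3 (0.84), with MITFKO at 0.34. SLC2A1, the glucose transporter GLUT1, had 393, 445 and 373 CPM in clone 3 and 513, 665 and 492 CPM in clone 13, against 232 ± 9.07 CPM in MITFKO and 145 CPM in wild type (log2 difference 1.71 ± 0.14, edgeR adjusted p = 2.88e-06). SLC16A3, the lactate exporter MCT4, had 138, 169.5 and 138 CPM in clone 3 and 209.9, 296 and 215 CPM in clone 13, against 102 ± 9.08 CPM in MITFKO and 36.2 CPM in wild type (2.39 ± 0.21, adjusted p = 4.01e-05). ALDOA, an aldolase, had 78.7, 90.3 and 84.9 CPM in clone 3 and 109, 134 and 114 CPM in clone 13, against 16.8 CPM in wild type (2.58 ± 0.11, adjusted p = 1.31e-13). Wild type was the lowest library in each, clone 13 was above clone 3, and replicate 2 was the highest library of either clone. PFKFB4, which raises the glycolysis activator fructose 2,6-bisphosphate, rose by 2.21 ± 0.18 (adjusted p = 1.08e-05), and the carrier SLC16A1 and the muscle-type kinase PFKM were at the wild-type level. Genes induced by hypoxia rose for 18 of 21 members and fell for 1 (median 1.64, with 1.94 in clone 13, 1.38 in clone 3 and 0.86 in MITFKO). CA9, a carbonic anhydrase of hypoxic tumours, had 5.61, 9.54 and 3.56 CPM in clone 3 and 19.0, 46.5 and 15.5 CPM in clone 13, against 3 counts (0.120 CPM) in wild type, a ratio of 145 (95% counting interval 49.6 to 705), or 90.7 without replicate 2 of clone 13. LOXL2, a collagen cross-linking oxidase, had 179, 207 and 191 CPM in clone 3 and 422, 683 and 412 CPM in clone 13, against 3.39 CPM in wild type (6.52 ± 0.49, adjusted p = 2.3e-05). Replicate 2 of clone 13 was again the highest for both, and without replicate 2 of both clones the list medians were 1.44 for hypoxia and 0.95 for glycolysis with the same counts of rises and falls.

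Of 39 respiratory chain genes 6 rose, 15 fell and 19 were at the wild-type level (median log2 difference -0.13), beside 2 above and 25 below in MITFKO (median -0.41). ATP5MC3, a subunit of the ATP synthase ring, fell to between 199 and 220.0 CPM in DKO libraries, against 430.2 CPM in wild type (log2 difference -1.04 ± 0.07, edgeR adjusted p = 1.08e-11). NDUFB3 of complex I (-1.12 ± 0.13) and UQCRFS1, the Rieske protein of complex III (-0.89 ± 0.09), fell too, and ATP5F1D of the ATP synthase rose (0.77 ± 0.08, adjusted p = 1.29e-07). ATP5F1B, its catalytic subunit, had 907 to 972 CPM in DKO and 963 CPM in wild type, inside the margin. With replicate 2 left out, 10 of these genes rose and 18 fell. Mitochondrial ribosome genes fell for 14 of 31 members and rose for 4, or for 1 with the GC trend removed, with 15 at the wild-type level (median -0.18); MRPS9 (-1.03 ± 0.11) and MRPL3 (-0.89 ± 0.09) were among those that fell. Cholesterol synthesis genes fell for 11 of 25 members and rose for 3, or for 5 without replicate 2, with 8 at wild type (median -0.17 in DKO and -0.32 in MITFKO). ACAT2, which makes the first intermediate, had 10.4 to 17.2 CPM in DKO and 39.3 CPM in wild type (-1.46 ± 0.18, adjusted p = 1.15e-07).

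Of 40 cytosolic ribosomal protein genes, whose counts are uncertain because near-identical copies share their reads, 18 rose, 3 fell and 23 were at the wild-type level (median log2 difference 0.18 in DKO and -0.09 in MITFKO). With the GC trend removed 13 rose and 6 fell (median 0.05), and without replicate 2 of both clones 20 rose and 7 fell. RPL13 had 1049.5, 1108 and 1038 CPM in clone 3 and 1153, 1355 and 1129 CPM in clone 13, against 600.1 CPM in wild type (0.92 ± 0.08, edgeR adjusted p = 1.31e-08), and RPL38 (1.07 ± 0.08) and RPLP2 (1.06 ± 0.08) rose as well. RPLP0, at 1967 to 2361 CPM in DKO and 1849 CPM in wild type, was at the wild-type level. Between the clones, 32 of the 40 were higher and 1 lower in clone 13 than in clone 3, where 14.3% of all genes were higher and 13.4% lower.

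Division genes ended below wild type. Of 35 mitosis genes, 31 fell, none rose and 1, PTTG1 (securin), was at the wild-type level (median log2 difference -0.68 in DKO and -1.02 in MITFKO). MKI67, the proliferation antigen Ki-67, had 147, 129 and 139.9 CPM in clone 3 and 113, 88.6 and 122.9 CPM in clone 13, against 116 ± 1.40 CPM in MITFKO and 317 CPM in wild type (log2 difference -1.37 ± 0.12, edgeR adjusted p = 2.07e-08). CDC20, an activator of the anaphase-promoting complex, had 106, 95.5 and 108 CPM in clone 3 and 81.3, 46.3 and 76.0 CPM in clone 13, against 205 CPM in wild type (-1.30 ± 0.24, adjusted p = 0.00194). Every DKO library was below wild type, and replicate 2 was the lowest of each clone. The chromosomal passenger CDCA8 (-1.29 ± 0.16) and the centromere histone CENPA (-1.09 ± 0.25) fell likewise. Clone 13 was called lower than clone 3 for 25 of the 35 and higher for none. Of 41 DNA replication genes, 28 fell, 3 rose and 6 were at the wild-type level (median -0.54 in DKO and -0.73 in MITFKO). PCNA, the sliding clamp, had 78.8, 69.6 and 76.7 CPM in clone 3 and 68.5, 51.1 and 64.2 CPM in clone 13, against 162 CPM in wild type (-1.26 ± 0.11, adjusted p = 9.71e-10), and POLE, a replicative polymerase (-1.47 ± 0.11), GINS1 of the helicase (-1.24 ± 0.20) and ORC1 of the origin complex (-1.12 ± 0.13) fell with it. RPA1, which coats single-stranded DNA, and POLD1, the catalytic subunit of the other replicative polymerase, were inside the wild-type margin. With the GC trend removed POLD1 lay below that margin (log2 difference -0.61, edgeR adjusted p = 2.64e-05), and none of the 41 genes rose.

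The 24 regulators of G1 were split, with 9 above wild type, 11 below and 2 at it (median log2 difference -0.12, or -0.34 with the GC trend removed, and mean 0.26). CDK2, a kinase of S-phase entry and a known MITF target that lies beside PMEL, had 242, 241 and 234 CPM in clone 3 and 223, 225 and 217 CPM in clone 13, against 239.7 ± 2.81 CPM in MITFKO and 701 CPM in wild type (log2 difference -1.61 ± 0.07, edgeR adjusted p = 1.05e-15). CCND1, cyclin D1, had 1379, 1291 and 1401 CPM in clone 3 and 1355, 1207 and 1308 CPM in clone 13, against 1453 ± 29.8 CPM in MITFKO and 323 CPM in wild type (2.03 ± 0.07, adjusted p = 1.46e-14). In both genes the 6 DKO libraries lay close together and well away from wild type, CDK2 below it and CCND1 above. The kinase inhibitors CDKN1A (p21, 1.95 ± 0.22) and CDKN2B (p15, 1.18 ± 0.21) rose. MYC had 132 to 171 CPM in DKO and 154 CPM in wild type and was at the wild-type level, as was CDK6.

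MAPK output genes, which report signalling below BRAF, rose for 19 of 27 members and fell for 3, with 3 at the wild-type level (median log2 difference 0.73 in DKO and 1.199 in MITFKO). LIF, a cytokine of the interleukin-6 family, had 728, 770.0 and 828 CPM in clone 3 and 712, 904 and 735 CPM in clone 13, against 1132 ± 53.1 CPM in MITFKO and 38.8 CPM in wild type (log2 difference 4.33 ± 0.11, edgeR adjusted p = 6.28e-14). The AP-1 members JUN (2.34 ± 0.14) and FOSL1 (2.34 ± 0.09) rose, with 151 to 201 CPM of FOSL1 in DKO and 33.0 CPM in wild type. SPRY4, a feedback inhibitor of the pathway, rose to between 494 and 594 CPM in DKO libraries, against 120.4 CPM in wild type (2.18 ± 0.07, adjusted p = 1.48e-15). ETV4 and ETV5, ETS factors also held to be targets of the pathway, were at the wild-type level, ETV5 at 211 to 272 CPM in DKO and 271 CPM in wild type. With the GC trend removed ETV4 was called lower (-0.49, adjusted p = 3.49e-06), and 5 of the 27 genes fell.

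Genes of the invasive melanoma state rose for 26 of 35 members and fell for 2 (median log2 difference 2.42 in DKO and 1.81 in MITFKO). WNT5A, a non-canonical Wnt ligand, had 70.1, 65.8 and 71.8 CPM in clone 3 and 117, 107 and 110.4 CPM in clone 13, against 69.6 ± 1.05 CPM in MITFKO and 1.56 CPM in wild type (log2 difference 5.81 ± 0.20, edgeR adjusted p = 4.64e-18), and NRP1, LOXL2 and IGFBP3 belong to this list as well. TEAD4, a partner of YAP, was at the wild-type level, but was called lower with the GC trend removed (-0.58, adjusted p = 0.000388), where 4 of the 35 genes fell. TGF-beta and YAP output genes rose for 15 of 27 members and fell for 4, with 5 at wild type (median 0.86). PMEPA1, a target and inhibitor of TGF-beta signalling, had 196, 177 and 197 CPM in clone 3 and 251, 327 and 276 CPM in clone 13, against 6.18 CPM in wild type (5.23 ± 0.15, adjusted p = 1.37e-15), and the ligand TGFB1 had 62.6 to 82.9 CPM in DKO and 4.98 CPM in wild type (3.83 ± 0.16, adjusted p = 1.55e-14). AMOTL2, a YAP target and restrainer, fell, with 14.2, 15.1 and 20.01 CPM in clone 3 and 4.45, 4.02 and 5.55 CPM in clone 13, against 35.8 CPM in wild type (-2.03 ± 0.19, adjusted p = 8.97e-10); clone 13 was lower than clone 3 and both were below wild type. TEAD1 was at the wild-type level, though called higher with the GC trend removed (0.23).

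Among 12 cadherins and regulators of epithelial-mesenchymal transition 7 rose and 4 fell (median log2 difference 0.83, mean -0.60, with CDH1 entering the mean at its fitted value). ZEB1, a repressor of epithelial genes, had 20.2, 18.9 and 19.1 CPM in clone 3 and 23.3, 24.5 and 21.6 CPM in clone 13, against 2.79 CPM in wild type (log2 difference 2.92 ± 0.19, edgeR adjusted p = 9.89e-12). CDH2, neural cadherin, had 110.4 to 131 CPM in DKO and 34.7 CPM in wild type (1.78 ± 0.09, adjusted p = 2.87e-12). ESRP1, an epithelial splicing factor, fell, with 25.8, 24.5 and 24.5 CPM in clone 3 and 16.7, 16.2 and 16.0 CPM in clone 13, against 69.1 CPM in wild type (-1.78 ± 0.12, adjusted p = 2.85e-12).

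Matrix genes rose for 24 of 40 members and fell for 3, with none placed at the wild-type level (median log2 difference 1.19 in DKO and 0.87 in MITFKO). COL5A1, a fibrillar collagen, had 11.0, 10.9 and 11.9 CPM in clone 3 and 36.0, 43.8 and 39.2 CPM in clone 13, against 0.199 CPM in wild type (log2 difference 6.69 ± 0.57, edgeR adjusted p = 1.07e-13). COL18A1, a basement membrane collagen, had 107, 113 and 110.1 CPM in clone 3 and 143, 162 and 146 CPM in clone 13, against 4.15 CPM in wild type (4.95 ± 0.15, adjusted p = 1.6e-17). The laminin LAMB3 rose by 2.87 ± 0.14, and in all of them clone 13 lay above clone 3 and both above wild type. COL4A2, another basement membrane collagen, was nearly lost, at most 0.388 CPM in DKO and 14.2 CPM in wild type (-6.09 ± 0.55, adjusted p = 8.56e-11). Fibroblast markers overlap this list, as DCN, LUM, COL1A1, COL1A2 and COL3A1 belong to both, so the lists do not give separate results. Of the 5 markers tested 3 rose, and the summed level of the markers was between 74.5 and 108.0 CPM in DKO libraries and 44.5 CPM in wild type. Most of it was LUM, a proteoglycan, and none of the fibroblast collagens COL1A1, COL1A2 and COL3A1 passed 1.33 CPM in a DKO library; the part of such cells in the result was not tested.

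Proteolysis genes rose for 14 of 20 members and fell for 2 (median log2 difference 2.16 in DKO and 2.25 in MITFKO). MMP1, interstitial collagenase, had 57.8, 64.7 and 57.5 CPM in clone 3 and 71.4, 82.4 and 73.4 CPM in clone 13, against 2.35 CPM in wild type (log2 difference 4.84 ± 0.18, edgeR adjusted p = 2.03e-16). ADAM19 had 412 to 569.7 CPM in DKO and 15.4 CPM in wild type (4.98 ± 0.09, adjusted p = 1.1e-19), and MMP15, a membrane-bound metalloproteinase, had 534, 529 and 557 CPM in clone 3 and 353, 330.2 and 345 CPM in clone 13, against 16.1 CPM in wild type (4.74 ± 0.09, adjusted p = 3.13e-19). All were higher in each DKO library, and MMP15 was higher in clone 3 than in clone 13. Integrin and adhesion genes rose for 19 of 29 members and fell for 6, with 8 at the wild-type level (median 0.41). ITGA5, the fibronectin receptor subunit, had 93.0, 103 and 99.3 CPM in clone 3 and 147, 199.6 and 143 CPM in clone 13, against 4.43 CPM in wild type (4.84 ± 0.29, adjusted p = 2.06e-07), and ITGA3, a laminin receptor subunit, had 220.4 to 486 CPM in DKO and 18.4 CPM in wild type (4.08 ± 0.11, adjusted p = 7.87e-17). TNS1, tensin, which ties integrins to actin, was nearly lost, with 1.35, 5.66 and 3.91 CPM in clone 3 and 3.66, 7.70 and 2.04 CPM in clone 13, against 290.0 CPM in wild type (-6.16 ± 0.54, adjusted p = 2.45e-05).

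MHC class II genes, which present antigens and are usual in immune cells, included some of the largest rises. Of 12 in the list, only 5 had enough counts to test, and 4 of those rose (median log2 difference 4.45 in DKO and 4.24 in MITFKO), among them CD74. HLA-DRA and HLA-DQA1 were among the members not tested. CD74 and HLA-DRB1 had next to no counts in wild type and could be tested only through the edited libraries, which shapes the count and the median. CIITA, the master activator of the class, had 24.7, 25.4 and 25.9 CPM in clone 3 and 33.6, 29.01 and 36.1 CPM in clone 13, against 28.7 ± 0.609 CPM in MITFKO and 1.52 CPM in wild type (log2 difference 4.25 ± 0.24, edgeR adjusted p = 1.19e-13). HLA-DRB1 had 26.6 to 28.4 CPM in DKO and 0.239 CPM in wild type (6.81 ± 0.50, adjusted p = 7.69e-15), though HLA genes share near-identical stretches. Leukocyte markers moved alongside: 1 of the 2 tested rose and the sum of the 10 was between 18.4 and 32.0 CPM in DKO libraries and 3.11 CPM in wild type, most of it LAPTM5, while PTPRC was near 0 in all groups. Of 23 interferon and class I genes, 6 rose, 3 fell and 2 were at the wild-type level (median 0.13, turning to -0.11 with the GC trend removed). HLA-B had 217, 278 and 219.7 CPM in clone 3 and 336, 538 and 343 CPM in clone 13, against 77.3 CPM in wild type (2.01 ± 0.28, adjusted p = 0.00180), with replicate 2 highest in each clone.

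Growth factor and receptor genes rose for 19 of 30 members and fell for 8 (median log2 difference 0.80), led by FLT1, IGFBP5, IGFBP3 and NRP1, with NRP2 at the wild-type level. The small fall of NRP2 was called all the same. Of 23 NRF2 targets 12 rose, 4 fell and 7 were at wild type (median 0.34), and with the GC trend removed 7 rose and 5 fell (median 0.10). ME1, malic enzyme, had 148 to 254 CPM in DKO and 47.1 CPM in wild type (log2 difference 2.04 ± 0.08, edgeR adjusted p = 5.35e-14). SLC7A11, the cystine importer, had 262, 220.1 and 273 CPM in clone 3 and 157, 122 and 168 CPM in clone 13, against 105 CPM in wild type (0.89 ± 0.16, adjusted p = 0.00121), clone 3 being the higher. Of 13 heat shock genes 5 rose and 5 fell (median 0.08): the co-chaperone BAG3 rose (0.84 ± 0.08) and the mitochondrial chaperonin HSPD1 fell (-0.82 ± 0.07), with 702 to 984 CPM in DKO and 1507 CPM in wild type.

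Some genes that were off the wild-type level in MITFKO lay at it in both DKO clones. They were named as the 10 farthest above and the 10 farthest below wild type in MITFKO among genes at the wild-type level in DKO, so their MITFKO values chose them and carry no test here. GAS5, a non-coding host of small nucleolar RNAs, had 80.6, 102 and 81.3 CPM in clone 3 and 71.5, 94.7 and 78.1 CPM in clone 13, beside 182 ± 10.9 CPM in MITFKO and 75.7 CPM in wild type. ZFAS1, a host of the same kind, had 114 to 139 CPM in DKO, 223 ± 4.06 CPM in MITFKO and 119.7 CPM in wild type. CEBPG, a dimer partner of ATF4, had 33.5, 30.0 and 31.7 CPM in clone 3 and 25.8, 24.8 and 24.7 CPM in clone 13, beside 53.9 ± 3.32 CPM in MITFKO and 28.5 CPM in wild type. The DKO libraries of these 3 genes spread round the wild-type value, with all MITFKO libraries above them. IFRD1, MIDN, PHC3, MOCOS, ATG14 (a subunit of the autophagy lipid kinase), NFAT5 (the tonicity factor) and GMIP completed the upper 10. On the lower side LGALS1, galectin-1, had 1485 to 1644 CPM in DKO, 778 ± 42.2 CPM in MITFKO and 1486 CPM in wild type, and SOX5, a neural crest factor that restrains melanocyte genes, had 53.5 to 74.7 CPM, 32.7 ± 3.35 CPM and 63.1 CPM in the same groups. PLPP4, FUNDC2, NCALD, TMEM64, UQCC3, S100B, SZRD1 and RPL36AL completed the lower 10. With the GC trend removed, MIDN, LGALS1 and GMIP were called below wild type (-0.33, -0.35 and -0.51) and IFRD1 and PHC3 above it (0.29 and 0.31), so their place at the wild-type level depends on that setting. The difference between DKO and MITFKO was not tested here.

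Another set was called away from wild type in DKO and in both clones, with all 6 libraries on 1 side and MITFKO inside 1.5-fold. It held 1035 genes (7.09% of those tested), 584 higher and 451 lower in DKO, of which 24 differed at least 2-fold from wild type. This set is not the reverse of the preceding one, as neither genes at the wild-type level in DKO nor genes called in MITFKO were left out. MC1R met its conditions, though at the wild-type level in DKO (log2 difference -0.27) and called lower in MITFKO (-0.39). IDH1, the cytosolic isocitrate dehydrogenase, had 149, 144 and 148 CPM in clone 3 and 155, 143 and 140.2 CPM in clone 13, beside 402 ± 17.5 CPM in MITFKO and 445 CPM in wild type (log2 difference of DKO from wild type -1.60 ± 0.07, edgeR adjusted p = 5.92e-15). PLEKHF1, an endosomal adaptor, had 14.2 to 20.4 CPM in DKO, 62.6 ± 2.99 CPM in MITFKO and 59.6 CPM in wild type (-1.77 ± 0.13, adjusted p = 4.31e-11). Every DKO library was below wild type for both. PSCA, a surface antigen, NRROS, a carrier of latent TGF-beta, and DTX3L, a ubiquitin ligase, also fell, with log2 differences of -1.70 ± 0.16, -1.40 ± 0.16 and -1.23 ± 0.11. LDHA, lactate dehydrogenase, had 2656, 2834 and 2490.2 CPM in clone 3 and 4186, 4938 and 3999 CPM in clone 13, beside 1739.8 ± 80.2 CPM in MITFKO and 1498 CPM in wild type (1.19 ± 0.09, adjusted p = 4.69e-09), with clone 13 highest. MOXD1 (1.31 ± 0.11), EMP3 (1.22 ± 0.09), the cartilage collagen COL9A3 (1.199 ± 0.10) and the actin binder TAGLN2 (1.155 ± 0.10) rose in the same way. These genes were chosen by these very differences, so the values describe them.

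**Figure D4:**
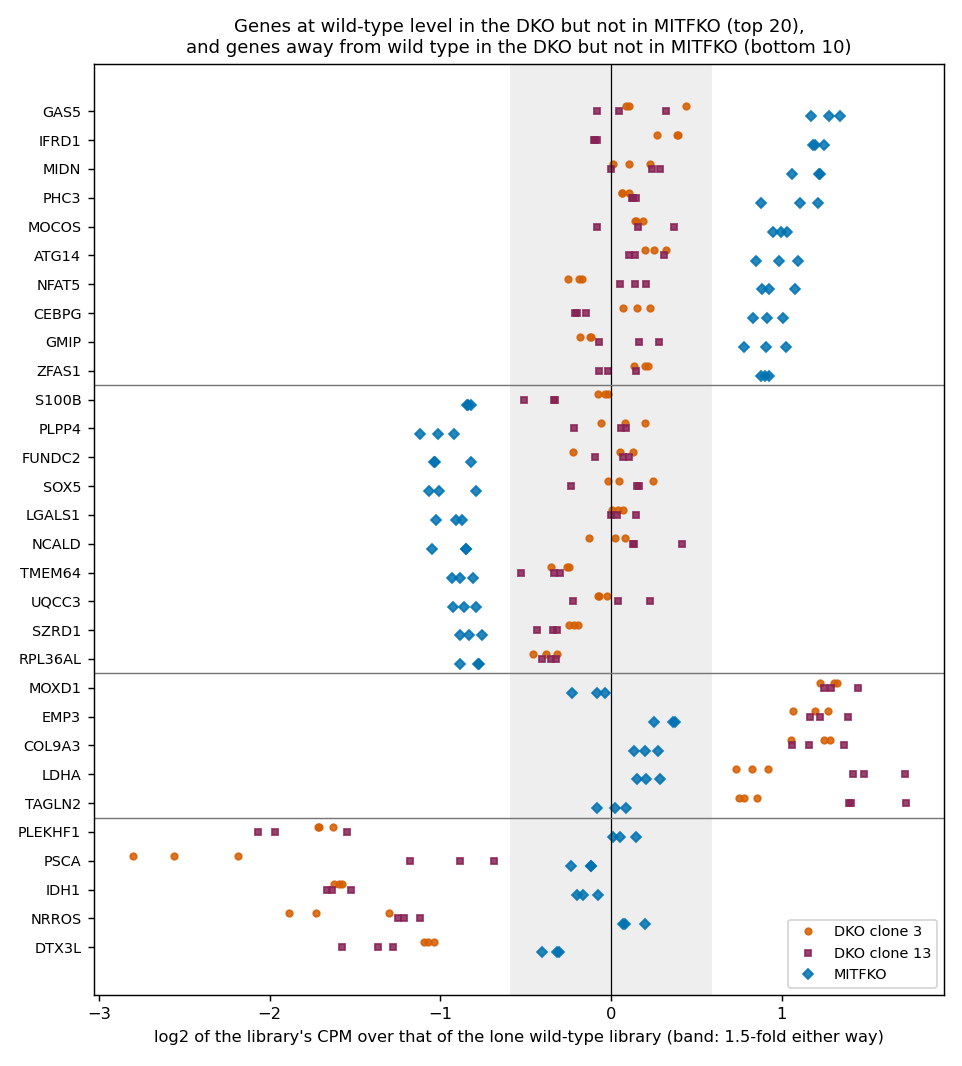
Log2 difference from wild type of 30 named genes, in every library of clone 3, clone 13 and MITFKO (points); the band marks 1.5-fold either way. In the upper 20 genes the clones lie in or near the band and MITFKO mostly outside it, as chosen, and in the lower 10, such as IDH1 and LDHA, MITFKO lies in the band and the clones outside it.

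Clone 13 differed from clone 3 in 4036 genes (27.6%), mostly by little: 2084 were higher (14.3%) and 1952 lower (13.4%), and 455 (3.12% of all tested) differed at least 2-fold. This contrast does not use the wild-type library. Opposite calls were rare: 11 genes were below wild type in clone 13 and above it in clone 3 (0.0753%), and 11 the reverse (0.0753%). VAMP5, a vesicle SNARE, had 0.282, 0.145 and 0.332 CPM in clone 13 and 15.5, 19.1 and 16.0 CPM in clone 3, against 2.87 CPM in wild type, a clone 13 to clone 3 log2 difference of -6.03 ± 0.40 (edgeR adjusted p = 2.12e-12). VGLL3, a TEAD cofactor, had 2.48, 1.16 and 1.33 CPM in clone 13 and 6.78, 6.49 and 6.61 CPM in clone 3, against 3.11 CPM in wild type (-2.01 ± 0.27, adjusted p = 6.77e-06). CST1, a secreted cysteine protease inhibitor, ran the other way, with 80.4, 93.2 and 86.9 CPM in clone 13 and 32.1, 32.3 and 28.3 CPM in clone 3, against 53.2 CPM in wild type (1.49 ± 0.08, adjusted p = 3.63e-11). In each the clones lay on opposite sides of wild type without overlap. HSD11B1L (1.48 ± 0.14), higher in clone 13, and CADPS2, a factor of dense-core vesicle release that was higher in clone 3 (-1.47 ± 0.15), behaved likewise.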

How the data were processed

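The authors deposited raw counts of reads per gene, 1 file per library, for 28278 symbols. Per the submitters' processing notes the tools were STAR, featureCounts and DESeq2 and the build was hg19, without versions. The sources used here do not give the strand setting, the annotation release or how multiply matched reads were handled, so overlapping, antisense and near-identical genes are uncertain. The header of the wild-type file names another STAR input number than those of the other 9 SKMEL28 files.

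All 10 SKMEL28 libraries were fitted in 1 model with edgeR 4.0.16 (R 4.3.3): filterByExpr by group, TMM factors and the robust quasi-likelihood F-test, with Benjamini-Hochberg adjustment over 14605 genes and calls at an adjusted p under 0.05. Wild type, with 1 library, took its spread from the other groups. CPM were computed from the deposited counts with TMM scaling. Alternatives were edgeR refits under other settings and the Wald test of DESeq2 1.42.0. The fit was also run on simulated counts. That simulation gave the wild-type library no peculiarity of its own, so it does not bear on the lack of a second wild-type library.

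Named genes were the MiT family, the 10 largest rises and falls at 5 CPM or more with all 6 double knockout libraries on one side of wild type, the 4 largest differences and the 2 highest genes at wild type in each gene list, the genes at or away from wild type relative to MITFKO, and the 5 with opposite calls in the clones; others are said to be chosen after their values were seen. The double knockout libraries, the 37 gene lists and this rule were chosen with earlier results of these data known. Same-numbered libraries of the clones deviated together (correlations of deviations from the clone means 0.15, 0.37 and 0.14), but replicates 1 and 3 correlated as much across numbers (0.14 and 0.16), so only replicate 2 is set apart by its number; MITFKO was not paired by number, and wild type shares no number. GC content came from GENCODE transcripts for 95.1% of tested genes, and promoter sequences from RefSeq. Results for some named genes and 1 gene list are not reported here.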

Additional observations from a re-analysis of the deposited data

Results flagged for a closer look

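Flagged were 7 named genes whose clone 13 to clone 3 difference was itself tested and called. In addition, the clones had to be called on opposite sides of wild type, or have unlike calls and lie at least 2-fold apart. TFE3 met the latter condition, being called in clone 3 and not in clone 13. TFE3 differed by 2.29 on the log2 scale (edgeR adjusted p = 2.53e-12), at 0.07 from wild type in clone 13 and -2.22 in clone 3. The chaperone partner DNAJA1 differed by -0.54 (adjusted p = 1.4e-05), with -0.27 in clone 13 and 0.27 in clone 3. VAMP5 differed by -6.03 (2.12e-12), VGLL3 by -2.01 (6.77e-06) and CADPS2 by -1.47 (1.24e-07), all lower in clone 13 (adjusted p in brackets). CST1 differed by 1.49 (adjusted p = 3.63e-11) and HSD11B1L by 1.48 (adjusted p = 6.75e-08), both higher in clone 13. VAMP5, VGLL3, CST1, HSD11B1L and CADPS2 were named because of opposite calls in the clones, so that the tests describe them. Each clone is 1 isolate, and a difference between isolates and an effect of the TFE3 edit cannot be told apart.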

How the results depend on the processing

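Over 17 alternatives and a pair of other margins, 183 of 185 counts of genes stayed within 1.5 times the reported count. The exceptions were the genes at the wild-type level, 6681 with a 2-fold margin and 434 with a tighter one. With each replicate left out in turn, genes above wild type in the mean of both clones numbered 3662 to 4126 and those below 3721 to 4146. Clone 3 then had 3315 to 3956 above and 3033 to 3764 below, clone 13 had 3793 to 4099 and 3748 to 3991, and 2697 to 3300 genes were at wild type. The lone wild-type library could not be left out. With the replicate block 3940 genes were above and 3980 below, and a replicate block over the clones alone gave 4173 and 4281. DESeq2 gave 3843 and 3587. With the GC trend removed 3291 were above and 4281 below, and the median over all genes was -0.08. The block over the clones alone and the omission of replicate 2 were chosen after seeing the data. The at-wild-type class was not computed under DESeq2 or that block.

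Of 172 named called genes, 161 kept their call and direction in every alternative. STARD4, ERBB3, PHGDH, RPS2 and TKT lost theirs with the GC trend removed, LINC01531 with DESeq2, HEXA, FLNA and NRP2 in a fit of the double knockout and wild type alone, and FLNA, NRP2 and FTH1 with some replicate left out. Direction reversed for 6 genes, each with the GC trend removed: UQCRC1 to -0.23, ID3 to -0.20, FLNA to -0.27, PXN to -0.11, MIDN to -0.33 and LGALS1 to -0.35 on the log2 scale. Of 1258 list counts, 1234 stayed within 1.5 times. Depth limits genes under 5 CPM, none of which could be placed at wild type.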

Other observations

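Differences from wild type varied by chromosome. The median log2 difference over tested genes was -0.40 on chromosome 6 (-0.38 in clone 3, -0.40 in clone 13 and -0.38 in MITFKO) and -0.34 on chromosome 2. With the GC trend removed these medians were -0.37 and -0.35. Chromosome 4 separated the clones: its 528 genes had a median of -0.40 in clone 13, -0.03 in clone 3 and -0.01 in MITFKO, and the clone 13 to clone 3 median was -0.39, or -0.35 with the GC trend removed. Over chromosome 4, 92 genes rose and 191 fell in the mean of both clones. Chromosomes 22 (median 0.33) and 19 (0.25) lay above wild type, at 0.07 and -0.05 with the GC trend removed.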
